A study of Rattus norvegicus with 8 samples.

Results

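Potassium channel subunits, the proteins encoded by rat genes whose symbols begin with *Kcn*, were compared between the substantia nigra (SN) of AAV-αSyn and AAV-Null rats. Non-control probes whose RefSeq accession carried such a symbol were taken as described in the processing, which gave 127 probes for 90 of the 16678 named genes on the array. Of these, 119 probes for 85 genes were well above background on at least 1 array and were tested, and 108 probes were above background on all 8 arrays. The 8 probes not tested were above background on 0 arrays and left 5 genes without a value. The rule used symbols and no array value. Members were grouped by symbol into voltage-gated pore subunits (39 genes), inward rectifiers (14 genes), two-pore channels (13 genes), calcium-activated channels with their sodium-activated relatives (7 genes), and auxiliary subunits (17 genes).

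Both groups were female Sprague-Dawley rats, 3 months old at the start, that received a single stereotaxic injection of an adeno-associated virus of serotype 6 (AAV6) into the SN of 1 side. The AAV-αSyn group (4 arrays) received a vector carrying wild-type human α-synuclein, the presynaptic protein that aggregates in Parkinson's disease, at 5.2e+10 vector genomes per µL. The AAV-Null group (4 arrays) received an empty control vector at 5.3e+09 vector genomes per µL, so that transgene and titre differed together and their effects cannot be told apart. Tissue was taken 20 weeks after surgery, and RNA of the injected side was hybridised to 1-colour Agilent arrays. The promoter of the transgene is not given in the sources used here, and the labels do not tie each array to a single animal, so that p-values measure the spread between these samples.

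Potassium channels let potassium leave the cell and thereby set the resting potential, end the action potential and space the spikes of a neuron. Pore subunits assemble into channels opened by voltage, by intracellular calcium, or held open at rest, and auxiliary subunits alter their gating and their transport to the membrane. Dopaminergic neurons of the SN are known as slow pacemakers, in which A-type Kv4 channels, SK channels and ATP-sensitive channels regulate the rate and pattern of firing, whereas neighbouring GABAergic neurons fire fast with the help of Kv3 channels. Kir4.1 in astrocytes takes up the potassium that neurons release.

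The 8 arrays lay on 1 slide and were alike in brightness, with 74.8% to 77.5% of spots well above background. Dopaminergic neuron markers were present on every array, and 5 of the 8 measured had lower values in AAV-αSyn at an unadjusted p under 0.05. Their mean score, the average of each gene's deviation from its mean of 8 arrays on the log2 scale, ran from 0.06 to 0.48 in AAV-Null and from −0.41 to −0.05 in AAV-αSyn. Markers of serotonergic, noradrenergic and glycinergic neurons moved the other way, with 4 of 5 higher and scores of −1.79 to 0.08 against 0.15 to 1.88. These scores include *Dbh*, above background on 0 AAV-Null and 3 AAV-αSyn arrays, which passed the filter only through the group where it was higher. By gene the groups overlapped for *Tph2*, *Slc6a4*, *Fev* and *Dbh*. Only *Slc6a5* separated them (limma adjusted p = 0.042). In the glutamatergic and thalamic list, 1 of 3 tested, *Gbx2*, had an unadjusted p under 0.05, with a log2 fold change of −2.001 (AAV-αSyn minus AAV-Null, as throughout). No marker of GABAergic neurons, astrocytes, oligodendrocytes, microglia, endothelium, pericytes or choroid plexus passed an unadjusted p under 0.05. The part of these marker shifts in the channel values below was not tested.

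No potassium channel probe passed the Benjamini-Hochberg adjustment in limma, where the lowest adjusted p was 0.600, while 5 of all 33853 probes tested (0.0148%) did. At an unadjusted p under 0.05, 9 of the 119 channel probes (7.56%) differed between the groups, against 5.64% of all probes tested. Of these, 4 gave higher values in AAV-αSyn (3.36%, against 3.31% of all probes) and 5 gave lower values (4.2%, against 2.33%). Among the 4 higher was the dimmer of 2 *Kcnk10* probes, which passed the background filter through AAV-αSyn arrays alone. In 5 channel probes the arrays of the 2 groups did not overlap, all with AAV-αSyn below AAV-Null, against 3.83% of all probes in either direction, 1.26% with AAV-αSyn below and 2.57% with AAV-αSyn above. The split by direction was not stable. It was 1 higher and 11 lower without AAV-Null 1, 12 higher and 5 lower without AAV-Null 3, and 18 higher and 11 lower with limma's array weights, which weight each array by its spread. In these fits 10.3%, 14.4% and 24.4% of channel probes were under 0.05, in the same order, while the shares of all probes tested were 6.22%, 8.14% and 17%. Single arrays moved the count of 9 as well. It was 17 of 118 (14.4%, background 8.14%) without AAV-Null 3, and 5 of 119 (4.2%, background 4.51%) both without AAV-Null 2 and without AAV-αSyn 4. Fewer cells of a type and less RNA per cell cannot be told apart in this bulk tissue.

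By gene, each represented by its brightest tested probe, 41 of the 85 had a higher and 44 a lower mean in AAV-αSyn, and the median log2 fold change was −0.01. Over all 13648 named genes tested, taken in the same way, 7644 were higher and 6004 lower, with a median of 0.02. The 53 voltage-gated probes held 7 of the 9 with an unadjusted p under 0.05 (13.2%, against 5.64% of all probes tested). Of these 7, 3 were higher and 4 lower, and 2 of the lower ones were probes of *Kcnc2*. The 19 two-pore probes held 1 (5.26%), higher, the *Kcnk10* probe that passed the background filter through AAV-αSyn arrays alone. The 20 auxiliary probes held 1 (5%), lower. The 15 inward rectifier and 12 calcium-activated probes held 0, and also 0 after adjustment. Median log2 fold changes over genes were 0.02 for voltage-gated, −0.11 for inward rectifier, −0.01 for two-pore, −0.02 for calcium-activated and 0.03 for auxiliary subunits. The sign of each of these medians but that of the inward rectifiers turned in at least 1 fit with another setting or without 1 array. Fitted differences over 0.5 on the log2 scale in either direction were found in 5 genes (5.88%), beside 3.8% of all named genes, and *Kcnk15* and *Kcnk18* among these were above background on only 5 and 1 of the 8 arrays.

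**Figure D1:**
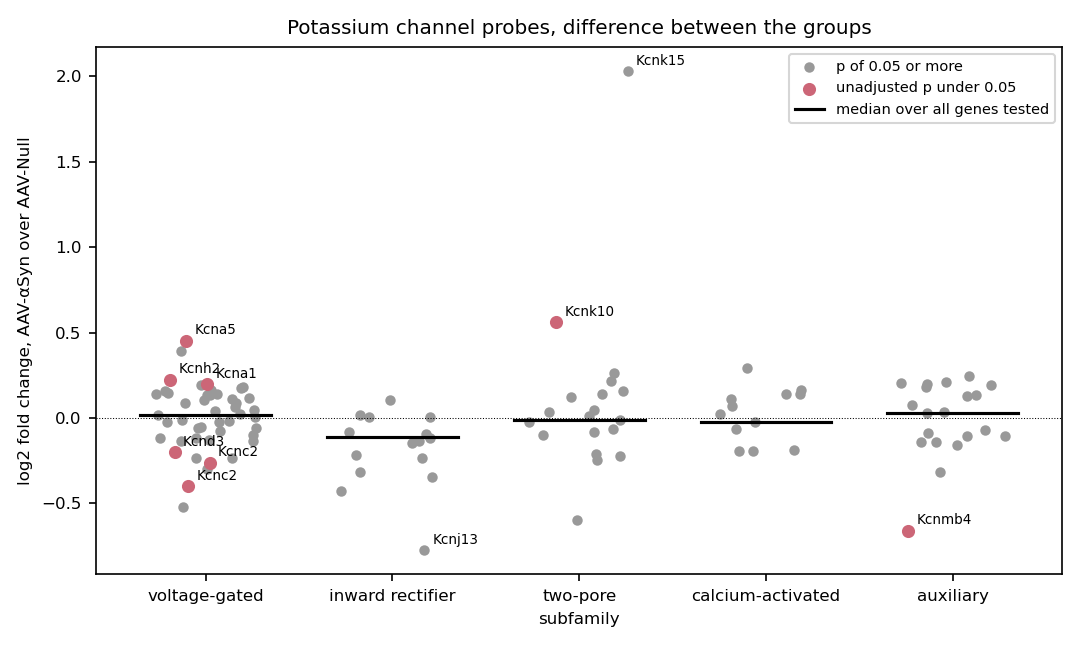
Log2 fold change (AAV-αSyn over AAV-Null, y axis) of 113 of the 119 potassium channel probes tested, by subfamily (x axis). Red points have an unadjusted limma p under 0.05, grey points do not, and black lines are medians over all genes tested. Most points lie close to 0, with *Kcnk15* at 2.03 as the highest and *Kcnj13* at −0.77 as the lowest.

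The lowest p of all channel probes belonged to *Kcnmb4*, which encodes the neuronal β4 subunit of the large-conductance calcium-activated (BK) channel and is known to slow BK gating. Its normalised log2 intensity (probe A_64_P147214) was 11.003, 11.09, 11.04 and 11.64 in AAV-Null 1 to 4, and 10.58, 10.62, 10.54 and 10.40 in AAV-αSyn 1 to 4. All 4 AAV-αSyn arrays lay below all AAV-Null arrays, and AAV-Null 4 stood above the rest of its group. The log2 fold change was −0.66 (SE 0.15), a level 1.58-fold higher in AAV-Null, with an unadjusted limma p = 0.0020, an adjusted p of 0.600, and p = 0.0286 in the exact permutation test, the smallest that 70 splits of 4 and 4 allow. Without AAV-Null 4 the log2 fold change was −0.51, and in each of the 8 fits without 1 array the unadjusted p was under 0.05 and the log2 fold change between −0.72 and −0.51.

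*Kcnc2* encodes Kv3.2, a fast delayed rectifier that lets GABAergic neurons fire at high rates, and both of its probes separated the groups. The brighter one (A_64_P007444) read 11.59, 11.75, 12.02 and 11.65 in AAV-Null and 11.45, 11.55, 11.49 and 11.48 in AAV-αSyn, a log2 fold change of −0.26 (SE 0.10, limma adjusted p = 0.837). The other (A_44_P346690), designed against a different transcript accession, read 8.36, 8.58, 8.63 and 8.20 against 7.81, 8.13, 8.08 and 8.16, a log2 fold change of −0.40 (SE 0.13, limma adjusted p = 0.747). With either probe every AAV-αSyn array was below every AAV-Null array, with p = 0.0286 in the exact permutation test. The gap was narrow, since the lowest AAV-Null array of the second probe, AAV-Null 4, lay close to the highest AAV-αSyn array. For the brighter probe, the unadjusted limma p was over 0.05 when AAV-Null 2, AAV-αSyn 1, AAV-αSyn 3 or AAV-αSyn 4 was left out, with a log2 fold change of −0.25 or −0.26. For the other it was under 0.05 in all 8 fits without 1 array.

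*Kcnd3* encodes Kv4.3, the pore of the A-type current of nigral dopaminergic neurons. Its brightest probe (A_42_P759894) read 11.85, 11.76, 11.72 and 11.73 in AAV-Null and 11.56, 11.61, 11.504 and 11.58 in AAV-αSyn. Every AAV-αSyn array was lower, with SDs of 0.06 and 0.04 within the groups. The log2 fold change was −0.20 (SE 0.07, unadjusted limma p = 0.016, adjusted p = 0.759, exact permutation p = 0.0286), and the unadjusted limma p was over 0.05 only without AAV-αSyn 3 (log2 fold change −0.18) among the 8 fits without 1 array. The other probes of the gene gave −0.13 and −0.24 with overlapping groups, and the mean of the gene's 3 probes gave −0.19 with an unadjusted limma p over 0.05.

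These are the genes whose representative probe separated the groups, and their promoters are shown for that reason. Each is the 250 bases before the start site in RefSeq (rat assembly GRCr8), with the GC box GGGCGG in capitals on either strand. *Kcnmb4* lies on the minus strand (chr7:54005102-54005351), *Kcnc2* on the plus strand (chr7:49587364-49587613, the first of 2 entries), and *Kcnd3* on the plus strand (chr2:195626066-195626315). Sequences are 5′ to 3′ on the gene's strand.
Kcnmb4: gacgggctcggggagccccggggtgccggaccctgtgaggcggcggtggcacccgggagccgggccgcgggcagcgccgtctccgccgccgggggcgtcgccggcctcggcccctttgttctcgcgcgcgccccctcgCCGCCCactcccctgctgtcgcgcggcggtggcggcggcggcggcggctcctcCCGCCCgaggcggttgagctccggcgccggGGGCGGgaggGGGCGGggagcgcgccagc
Kcnc2: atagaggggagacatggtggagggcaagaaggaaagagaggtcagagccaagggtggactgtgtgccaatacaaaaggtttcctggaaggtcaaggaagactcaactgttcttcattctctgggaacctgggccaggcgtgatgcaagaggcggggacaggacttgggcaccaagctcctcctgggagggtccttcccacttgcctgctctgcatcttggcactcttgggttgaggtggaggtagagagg
Kcnd3: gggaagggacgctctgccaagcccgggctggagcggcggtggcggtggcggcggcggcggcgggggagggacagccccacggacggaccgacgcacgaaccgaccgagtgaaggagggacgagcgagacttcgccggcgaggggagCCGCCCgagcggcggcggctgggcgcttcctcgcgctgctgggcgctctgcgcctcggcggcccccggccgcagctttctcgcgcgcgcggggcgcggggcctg
The *Kcnmb4* and *Kcnd3* windows are 84.4% and 79.6% G or C and hold 4 and 1 GC boxes, whereas the *Kcnc2* window is 56% G or C and holds 0. The median over 33469 promoters was 51.2%, and over 69 entries of 63 potassium channel genes it was 59.6%. A GC box stood in 30.5% of all promoters and in 47.8% of the channel entries. None of these windows held AAAGGTCA, the element bound by the dopaminergic factor Nr4a2 as a monomer, which 1.24% of all promoters held, nor the cAMP response element TGACGTCA (1.59%) or TATAAA (12.9%), all searched on both strands. The letters describe the windows alone.

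**Figure D2:**
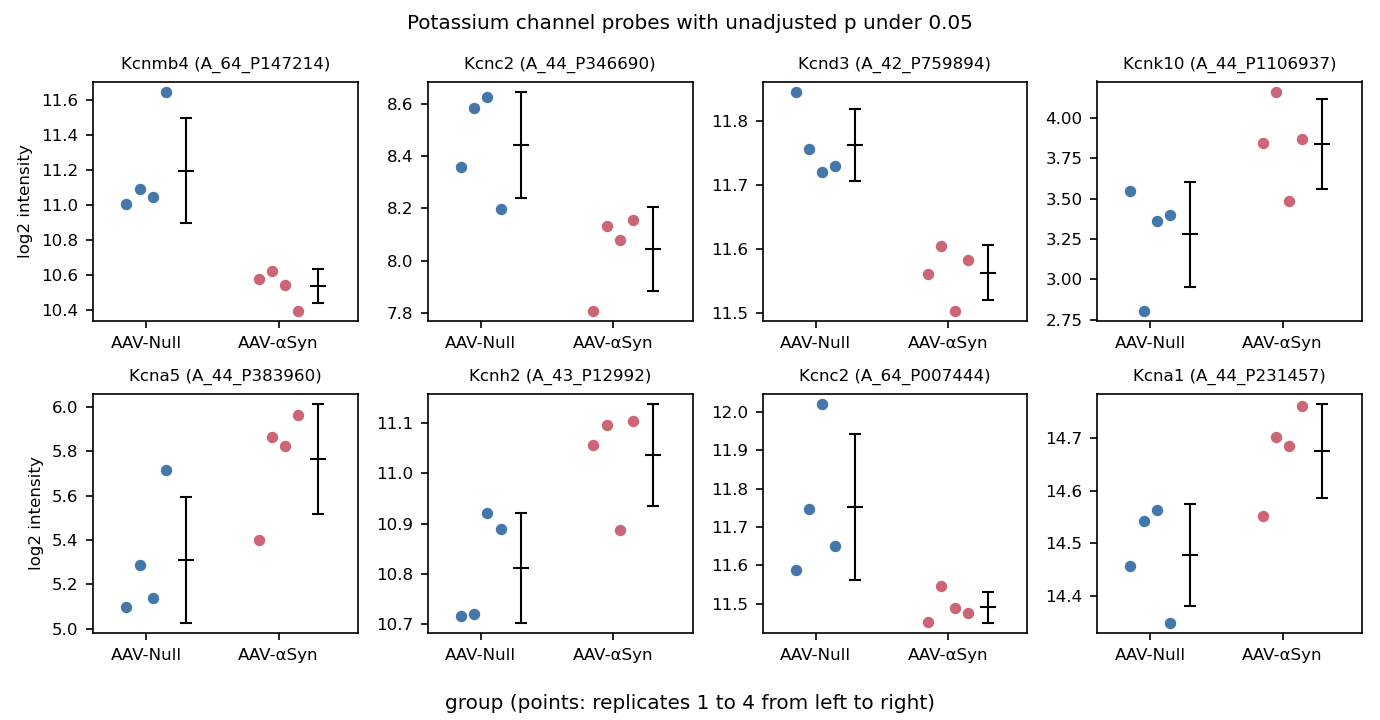
Normalised log2 intensity (y axis, a scale of its own in each panel) of 8 of the 9 potassium channel probes with an unadjusted p under 0.05, for AAV-Null and AAV-αSyn (x axis). Points are replicates 1 to 4 from left to right, with the mean and SD beside them. The groups do not overlap for *Kcnmb4*, *Kcnd3* and both *Kcnc2* probes, and they overlap for *Kcnk10*, *Kcna5*, *Kcnh2* and *Kcna1*.

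Among the other voltage-gated subunits, the Kv1 family (*Kcna*) had 2 probes with higher values in AAV-αSyn at an unadjusted p under 0.05. *Kcna5*, encoding the delayed rectifier Kv1.5, read 5.10, 5.29, 5.14 and 5.72 in AAV-Null and 5.40, 5.87, 5.82 and 5.97 in AAV-αSyn (log2 fold change 0.45, SE 0.17, exact permutation p = 0.057). *Kcna1*, encoding the axonal Kv1.1, read 14.46, 14.54, 14.56 and 14.35 against 14.55, 14.70, 14.69 and 14.76 (log2 fold change 0.20, SE 0.08, exact permutation p = 0.057). In both genes AAV-αSyn 1 lay within the AAV-Null range and the other AAV-αSyn arrays above it, and the limma adjusted p was 0.835 and 0.862. Each stayed under an unadjusted p of 0.05 in 2 of 8 fits that left out 1 array, with a log2 fold change of 0.38 to 0.59 for *Kcna5* and 0.16 to 0.24 for *Kcna1*. With normexp, a model-based background correction, *Kcna5* gave 0.23. *Kcna2* and *Kcna4*, encoding Kv1.2 and the A-type Kv1.4, gave −0.10 (−0.18 to −0.05 in fits without 1 array) and −0.14 (−0.20 to −0.09) with overlapping groups, and the unadjusted limma p of *Kcna4* was under 0.05 without AAV-Null 1.

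*Kcnh2*, encoding the ERG channel that also shapes the repolarisation of the heart, read 10.72, 10.72, 10.92 and 10.89 in AAV-Null and 11.06, 11.10, 10.89 and 11.10 in AAV-αSyn. AAV-αSyn 3 lay within the AAV-Null range, and the log2 fold change was 0.22 (SE 0.09, exact permutation p = 0.086, limma adjusted p = 0.835). The unadjusted p was under 0.05 in 3 of 8 fits without 1 array, at a log2 fold change of 0.19 to 0.27. The 8 *Kcnh* genes had 5 higher and 3 lower means, from −0.13 to 0.22.

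*Kcnf1*, one of the silent subunits, which form no channel on their own, had the largest voltage-gated difference in the main setting. That of *Kcna5* was larger in size with normexp background correction (0.23, against −0.19 for *Kcnf1*), with array weights (0.53 against −0.51), without AAV-Null 4 and without AAV-αSyn 1. It read 4.85, 5.66, 5.65 and 5.62 in AAV-Null and 4.27, 5.29, 5.17 and 4.98 in AAV-αSyn (log2 fold change −0.52, SE 0.27, exact permutation p = 0.114). AAV-Null 1 stood below its group, and without it the log2 fold change was −0.72. It was −0.30 without AAV-αSyn 1, the lowest array, and the unadjusted limma p was under 0.05 in 1 of 8 fits without 1 array, that without AAV-Null 1, and with array weights (−0.51). *Kcns3*, a silent partner of Kv2 channels, gave 0.17 (SE 0.11, 0.09 to 0.24 in fits without 1 array). Its unadjusted limma p was under 0.05 in 1 of 10 processing alternatives. The 10 silent subunits as a group had 6 higher and 4 lower means. *Kcnb2*, a delayed rectifier subunit of the Kv2 channels, gave −0.12 and 0.17 with its 2 probes, both with overlapping groups. *Kcnc1*, encoding Kv3.1, the relative of *Kcnc2*, gave 0.14 (SE 0.10), opposite in sign to *Kcnc2*, and *Kcnd2*, encoding Kv4.2, gave −0.05 (SE 0.14). Neither had an unadjusted p under 0.05 with any of its probes. *Kcnq3*, encoding the M-current subunit Kv7.3, gave −0.12 (SE 0.07, exact permutation p = 0.086), with 3 of 4 AAV-αSyn arrays below the AAV-Null range. *Kcna10*, a further Kv1 gene, was not well above background on any array.

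None of the 15 inward rectifier probes had an unadjusted p under 0.05, and 8 of the 12 genes tested had a lower mean in AAV-αSyn. *Kcnj9*, a G-protein-gated subunit through which dopamine and GABA receptors hyperpolarise neurons, read 8.25, 8.61, 9.06 and 8.42 in AAV-Null and 8.24, 8.50, 8.0 and 7.89 in AAV-αSyn (log2 fold change −0.43, SE 0.20, exact permutation p = 0.114). AAV-αSyn 2 lay within the AAV-Null range, and the log2 fold change in fits without 1 array ran from −0.54 without AAV-Null 1 or AAV-αSyn 2, the 2 of 8 with an unadjusted limma p under 0.05, to −0.27 without AAV-Null 3. With all arrays the unadjusted limma p was also under 0.05 with array weights (−0.42) and with a trended, robust variance (−0.43). The other G-protein-gated subunits, *Kcnj3* and *Kcnj5*, gave 0.00 and 0.10. *Kcnj11* and *Kcnj8*, the pores of ATP-sensitive channels of neurons and of vascular cells, gave −0.09 and 0.01, and *Kcnj11* ran from −0.23 without AAV-Null 4 to 0.01 without AAV-Null 3.

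Of the glial channels, *Kcnj10*, encoding astrocytic Kir4.1, read 6.49, 6.11, 7.16 and 6.19 in AAV-Null and 6.43, 6.15, 6.22 and 6.29 in AAV-αSyn (log2 fold change −0.21, SE 0.22). AAV-Null 3 alone was above the rest, and the log2 fold change across fits without 1 array ran from −0.34 to 0.01 and was 0.04 with array weights. Its partner *Kcnj16*, encoding Kir5.1, gave −0.08 with the brighter probe. The second *Kcnj16* probe read 10.21, 10.22, 10.16 and 10.25 against 10.09, 10.13, 10.02 and 10.12, without overlap, for a log2 fold change of −0.12 (SE 0.06, exact permutation p = 0.0286), with an unadjusted limma p over 0.05. *Kcnj13*, encoding Kir7.1, a channel of the choroid plexus epithelium, read 4.79, 6.85, 4.18 and 4.62 in AAV-Null and 4.34, 4.42, 4.18 and 4.40 in AAV-αSyn (log2 fold change −0.77, SE 0.52, exact permutation p = 0.143). AAV-Null 2 stood above all others, and without it the log2 fold change was −0.20. It was −0.32 with normexp background correction and −1.96 with array weights, where alone among the alternatives the unadjusted limma p was under 0.05. The choroid plexus marker *Ttr* was highest on AAV-αSyn 2, at 12.33, and read 7.63 on AAV-Null 2. *Kcnj15* and *Kcnj2* were not well above background on any array.

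Two-pore channels carry the leak current that sets the resting potential. *Kcnk10*, encoding the mechanically gated TREK-2, had 2 probes, both with higher means in AAV-αSyn. The dimmer one (A_44_P1106937) read 3.55, 2.81, 3.36 and 3.40 in AAV-Null, not well above background on any of these arrays, and 3.85, 4.16, 3.48 and 3.87 in AAV-αSyn, above background on 3 of 4. Against the higher, on each AAV-Null array, of the probe's own reading and the lowest signal well above background there, the level was at least 1.34-fold higher in AAV-αSyn (fitted log2 fold change 0.56, exact permutation p = 0.057, limma adjusted p = 0.778). That probe passed the background filter through AAV-αSyn arrays alone, the group where it was higher, so its difference cannot count as support. The unadjusted limma p was over 0.05 without AAV-αSyn 2 (0.45 on the log2 scale), with normexp background correction (0.08), and at the same 0.56 with a trended, robust variance. The brighter probe read 7.46, 7.44, 7.54 and 7.45 against 7.42, 7.82, 7.68 and 8.03 (log2 fold change 0.26, SE 0.13, exact permutation p = 0.143), with AAV-αSyn 1 the lowest of all 8 arrays, and fits without 1 array gave 0.17 without AAV-αSyn 4 to 0.37 without AAV-αSyn 1. The last was the only one of these 8 with an unadjusted limma p under 0.05. Over 11 processing alternatives, counting the mean with the dimmer probe, it ran from 0.19 to 0.41, and 3 had an unadjusted limma p under 0.05.

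*Kcnk15*, a TASK-related subunit, had the largest fitted difference of all channel probes, on a probe near background. It read 2.23, 2.08, 4.18 and 4.33 in AAV-Null and 6.07, 6.88, 2.94 and 5.06 in AAV-αSyn, above background on 2 and 3 arrays. The arrays within each group spanned more than 2 log2 units, and the log2 fold change of 2.03 had an SE of 0.90 (exact permutation p = 0.114, limma adjusted p = 0.890). In fits without 1 array it ran from 1.47 without AAV-αSyn 2 to 2.80 without AAV-αSyn 3, and the unadjusted limma p was under 0.05 in 2 of 8. With normexp background correction it was 0.54, smaller in size than the −0.63 of *Kcnmb4*. *Kcnk18*, encoding TRESK, was above background on AAV-Null 1 alone, at 4.24. *Kcnk3* and *Kcnk9*, encoding the acid-sensitive TASK-1 and TASK-3, gave 0.01 and −0.21 (0.07 for *Kcnk9* with array weights), and *Kcnk13*, encoding THIK-1, the resting channel of microglia, gave −0.08 and 0.22 with its 2 probes. *Kcnk3* read 7.38 on AAV-Null 3 and 5.64 to 6.48 on all others, and its log2 fold change in fits without 1 array ran from −0.19 without AAV-Null 1 to 0.39 without AAV-Null 3, the only one of the 8 with an unadjusted limma p under 0.05.

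No calcium-activated channel probe had an unadjusted p under 0.05, and all log2 fold changes lay between −0.19 and 0.29. *Kcnma1*, the pore of the BK channel with which the *Kcnmb4* product assembles, read 8.73, 8.54, 8.49 and 8.37 in AAV-Null and 8.32, 8.13, 8.39 and 8.51 in AAV-αSyn (log2 fold change −0.19, SE 0.11, exact permutation p = 0.143). Its groups overlapped, and its second probe gave −0.19 as well. *Kcnn3*, encoding SK3, the small-conductance channel that paces dopaminergic neurons, read 9.50, 9.44, 9.86 and 9.49 against 9.30, 9.33, 9.46 and 9.45 (log2 fold change −0.19, SE 0.11, exact permutation p = 0.086), with AAV-Null 3 well above the others. In fits without 1 array the *Kcnn3* log2 fold change ran from −0.23 to −0.10, the latter without AAV-Null 3. Over 10 processing alternatives it ran from −0.20 to −0.07, the latter with array weights, and 1 had an unadjusted limma p under 0.05. *Kcnn2*, encoding SK2, had 4 probes that all gave higher means in AAV-αSyn, from 0.02 to 0.16. *Kcnn4*, encoding the intermediate-conductance channel of immune and glial cells, gave 0.29 (SE 0.24), with AAV-αSyn 1 at 7.28 and the other AAV-αSyn arrays at 6.09 to 6.32. Without AAV-αSyn 1 it was 0.03.

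Of the auxiliary subunits besides *Kcnmb4*, none had an unadjusted p under 0.05. Of the other BK β subunits, *Kcnmb2* gave 0.18 (SE 0.10) with overlapping groups, while *Kcnmb3* and *Kcnmb1* were above background on 1 and 4 of the 8 arrays. *Kcnip3*, a calcium-binding subunit of Kv4 channels found in dopaminergic neurons, read 7.87, 7.79, 8.24 and 7.63 in AAV-Null and 7.82, 7.82, 7.88 and 7.44 in AAV-αSyn (−0.14, SE 0.15), and its second probe gave −0.16. For the first probe the log2 fold change was −0.02 without AAV-Null 3 and −0.04 without AAV-αSyn 4. Of the 4 *Kcnip* genes, 3 had lower means and *Kcnip1* a higher one, by 0.21. The cytoplasmic Kv1 β subunits *Kcnab1*, *Kcnab2* and *Kcnab3* gave 0.21, −0.09 and 0.03. *Kcne3*, of the single-pass MinK family, was above background on 1 array only, and *Kcne1* and *Kcne4* on 0 arrays.

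Several probes of 1 gene offered a further look at each measurement within the same RNA. Among the 29 genes with more than 1 probe tested (63 probes), 22 had the same sign in every probe and 7 had mixed signs. *Kcnc2* was the only gene of these with every probe at an unadjusted p under 0.05, and in *Kcnd3* and *Kcnk10* 1 probe of 2 or 3 was under it. Close values were found for *Kcnma1*, *Kcnip3* and *Kcnip1*, whose probes differed by less than 0.02.

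**Figure D3:**
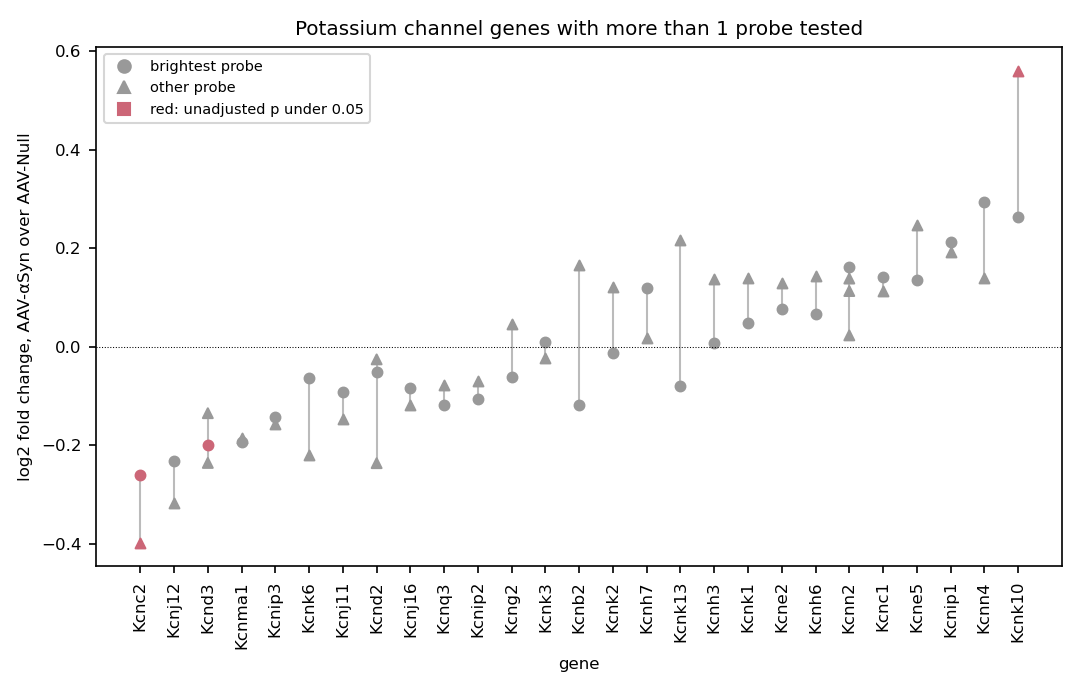
Log2 fold change (AAV-αSyn over AAV-Null, y axis) of every tested probe of 27 of the 29 potassium channel genes with more than 1 (x axis), joined by a line per gene. Circles are the brightest probe and triangles the others, and red marks an unadjusted p under 0.05. Lines that cross 0 belong to 5 of the 7 genes of mixed sign, and both *Kcnc2* points are red, at −0.26 and −0.40.

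Arrays of 1 group differed more for these genes than for most, as a description with no test. The SD pooled within groups had a median of 0.22 log2 units over the 85 genes and 0.21 over the 77 genes above background on all arrays, against 0.16 over 13648 named genes. AAV-Null 3 was the highest of the 8 arrays for 25 of the 85 genes (29.4%), beside 25% of all named genes, and the lowest for 13 (15.3%), beside 33.6%. On AAV-Null 3 *Sgk1*, a kinase that regulates ion channels, read 10.60, where the other arrays read 12.07 to 13.04.

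**Figure D4:**
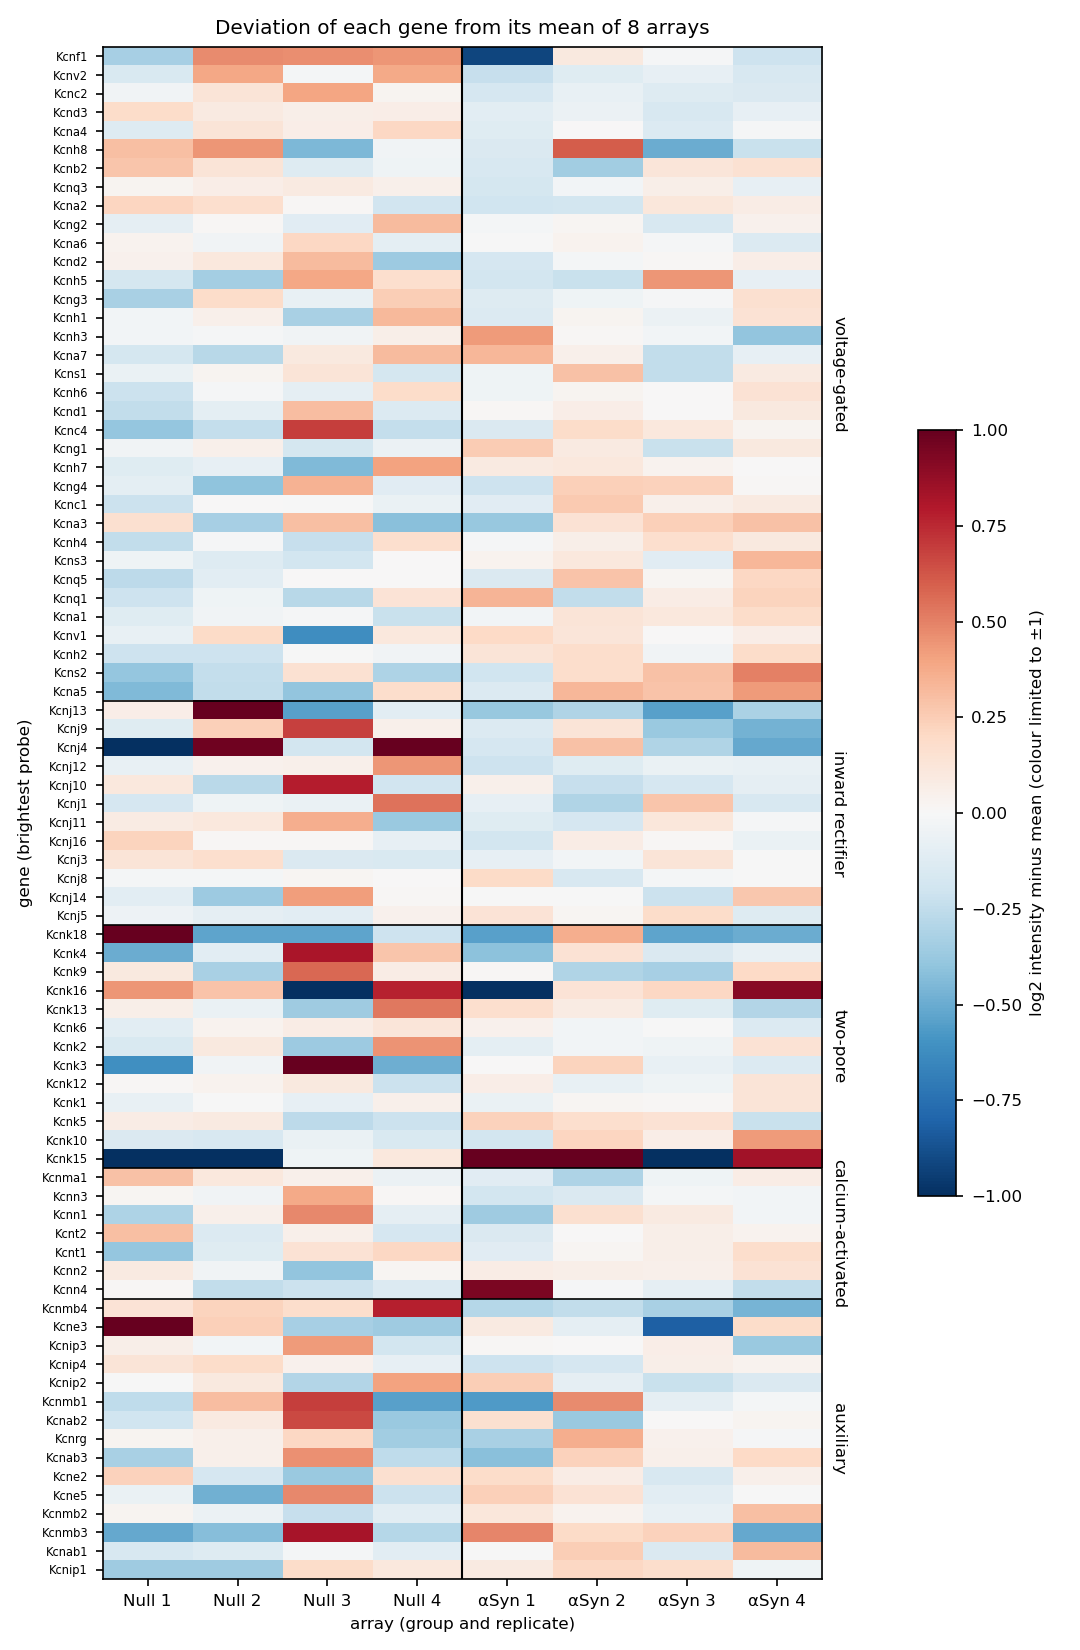
Deviation of each of 82 of the 85 potassium channel genes tested (rows, brightest probe, ordered within subfamily by log2 fold change) from its mean of 8 arrays, on a log2 scale with colour limited to ±1, for each array (columns). No column of AAV-αSyn is of a single colour, and AAV-Null 3 holds the highest value of 23 of the 82 genes.

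**Figure D5:**
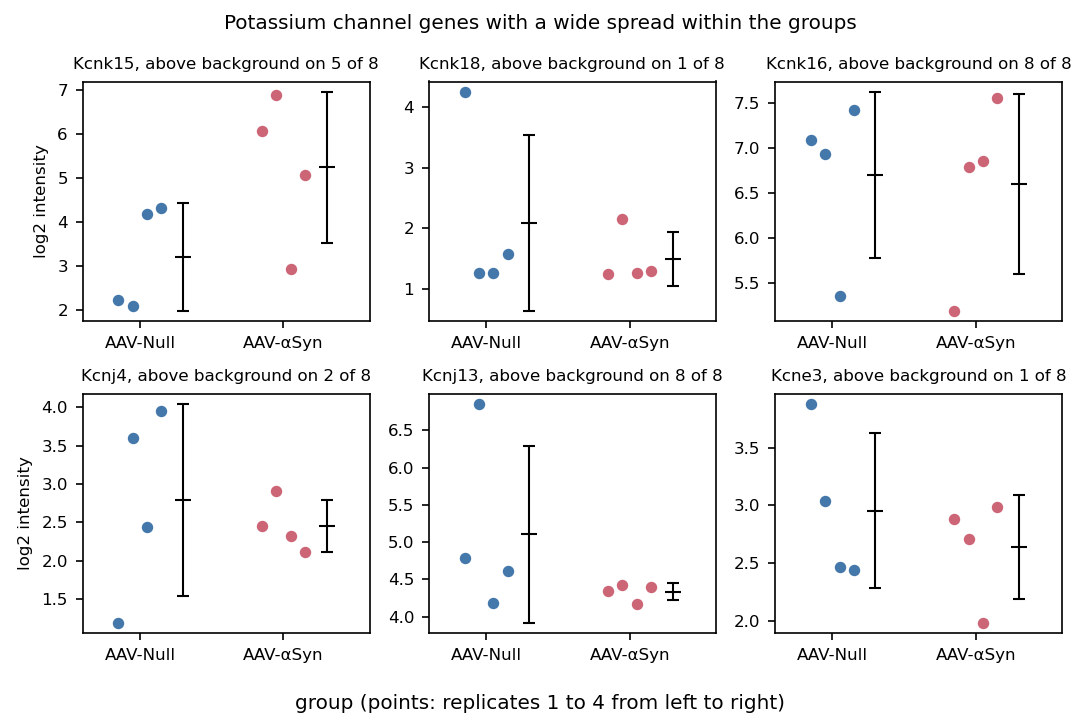
Normalised log2 intensity (y axis, a scale of its own in each panel) of 6 potassium channel genes with a wide spread within groups, for AAV-Null and AAV-αSyn (x axis). Points are replicates 1 to 4 from left to right, with the mean and SD beside them. *Kcnj13* has 1 AAV-Null array far above the rest, at 6.85.

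Proteins that partner with potassium channels but are not subunits by name were examined as well. Of 22 such genes, 18 were tested, 0 were higher and 1 was lower at an unadjusted p under 0.05, beside 5.64% of all probes tested in either direction, with 0 after adjustment and a median log2 fold change of −0.01. The lower one was *Ncs1*, a calcium sensor that binds Kv4 channels, which read 7.73, 7.998, 8.23 and 7.62 in AAV-Null and 7.19, 7.68, 7.601 and 7.58 in AAV-αSyn (log2 fold change −0.38, SE 0.16, exact permutation p = 0.057, limma adjusted p = 0.871). AAV-αSyn 2 overlapped the AAV-Null range. The Kv4 partners *Dpp6* and *Dpp10* gave −0.02 and −0.10, and the sulphonylurea receptors *Abcc8* and *Abcc9*, partners of the ATP-sensitive channels, gave 0.03 and −0.04.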

How the data were processed

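RNA of the injected SN was measured on 8 Agilent arrays, 4 per group on 1 slide. The intensity of each spot, as deposited by the authors, is in arbitrary units and had its background corrected array by array in Feature Extraction (12.0.3.2 per the file headers, 11.5.1.1 in the submitters' processing notes). The authors also deposited a matrix of quantile normalised log2 values, used here as an alternative. The methods describe 3 replicates per group where 4 are labelled.

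Processed intensity was taken to log2 without control and outlier spots. Probes with at least 0.5 of their spots well above background on at least 1 array were kept (33853 of 45598), quantile normalised and averaged over spots, then compared with limma 3.58.1 in R 4.3.3 (lmFit and eBayes, two-sided) with Benjamini-Hochberg adjustment over all probes tested and a threshold of 0.05. Single genes also had an exact permutation test over 70 splits. The number of arrays limits the precision. No saturated spots were found.

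Accessions were named through a RefSeq table of rat assembly GRCr8 (21229 probes), which also gave the promoters. With exceptions stated at the end, the text names every gene with a probe at an unadjusted p under 0.05, every gene whose brightest probe separated the groups, the 2 largest differences of each of 5 subfamilies, and genes known from nigral neurons or glia. Other members are named as relatives of these. Members, gene lists and rules were chosen with earlier results of these data known. Of the symbols with this prefix, 1 is left out of the members and a few are counted but not reported here by name.

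Replicate numbers gave correlations of same-numbered deviations from −0.002 to 0.267 and were not taken as pairs. Alternatives were 75th percentile scaling, cyclic loess, normexp (offset 50, on median signal and local background), no filter, a filter on all 8 arrays, the deposited matrix, a trended robust variance, array weights, a replicate block, the slide column as a block, all probes of a gene, and leaving out each array. The procedure was tested on simulated data.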

Additional observations from a re-analysis of the deposited data

Results flagged for a closer look

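In 6 groups of arrays of a named gene, and in 1 of a subfamily score, the gap between the most extreme array and its nearest neighbour took more of the group's range than Dixon's critical value allows for 4 samples. Of 104 groups examined 7 did so, where chance alone would give about 5.2.

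*Kcnmb4* was at 11.64 on AAV-Null 4, with the other AAV-Null arrays at 11.003 to 11.09 (0.862 of the range). *Kcnf1* was at 4.85 on AAV-Null 1, with the others at 5.62 to 5.66 (0.953). *Kcnn3* was at 9.86 on AAV-Null 3, with the others at 9.44 to 9.50 (0.856). *Kcnip3* was at 7.44 on AAV-αSyn 4, with the other AAV-αSyn arrays at 7.82 to 7.88 (0.856). *Kcnk18* had such an array in both groups. It was at 4.24 on AAV-Null 1, the only array above background, with the others at 1.26 to 1.58 (0.892), and at 2.15 on AAV-αSyn 2, below background, with the others at 1.25 to 1.29 (0.949). The mean score of the calcium-activated channels was −0.03 on AAV-αSyn 2, with the other AAV-αSyn arrays at 0.01 to 0.02 (0.88).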

How the results depend on the processing

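No channel probe passed the adjustment in limma under any of the 10 processing alternatives or the 8 fits without 1 array. At an unadjusted p under 0.05 the count of probes, 9, ran from 8 to 29 over the alternatives. Array weights gave 29 (24.4%), 18 higher and 11 lower, while all probes tested went to 17%. The replicate block left 2 higher of 9 in all, with *Kcna1*, *Kcnh2* and the dimmer *Kcnk10* probe over 0.05 and *Kcnf1* under it. Without 1 array the count ran from 5 to 17, with 1 to 12 higher and 2 to 11 lower. The highest were 12 higher without AAV-Null 3 and 11 lower without AAV-Null 1.

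The inward rectifier median (−0.11) was −0.080 with the deposited matrix, −0.078 with array weights, and −0.171 to −0.068 without 1 array. The calcium-activated median (−0.02) was 0.080 with array weights and 0.048 over all tested probes, and −0.085 to 0.058 without 1 array. The two-pore median ran from −0.063 to 0.075, the voltage-gated median from −0.03 to 0.05 and the auxiliary median from −0.05 to 0.11 without 1 array. The sign of these medians, inward rectifiers aside, turned in at least 1 setting.

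*Kcnmb4* kept an unadjusted p under 0.05 in all 10 alternatives (log2 fold change −0.68 to −0.59, lowest adjusted p 0.0881 with limma's array weights). The causes were not tested. Over the named genes, 613 of 693 alternative values stayed on their side of 0.05 with the same sign and 24, all over it, with the opposite sign. A further 20 crossed to under it and 36 to over it, all with the sign kept. Of the 29 named genes whose brightest probe was over 0.05, leaving out 1 array turned the sign of 8, and it turned the sign or moved the value by over 1.5 times in 27. Signal over background limits *Kcnk15*, *Kcnk18*, *Kcne3* and the dimmer *Kcnk10* probe.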
